A study of Homo sapiens with 12 samples.

Results

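The transcripts of 10 integrin subunit genes were followed across 12 RNA-seq libraries. These were the alpha subunit genes ITGA2, ITGA3, ITGA5, ITGA6 and ITGAV and the beta subunit genes ITGB1, ITGB3, ITGB4, ITGB5 and ITGB6, chosen by name from the 60617 genes in the files. All 10 were among the 15692 genes with enough counts to be tested. ITGB6 entered only through the libraries in which it was higher, so that a difference between the lines was built into its test.

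The libraries came from HCT 116p53-/-, human colorectal carcinoma cells of p53-/- genotype, and from a sub-line that the labels call HCT 116p53-/-RPL3 KO and the study calls uL3ΔHCT 116p53-/-. RPL3 encodes uL3, a protein of the large ribosomal subunit, and the study describes the sub-line as stably silenced for it. Each line was given vehicle or 5 nM Actinomycin D (Act D) for 24 h, a dose at which the drug blocks transcription of ribosomal RNA genes by RNA polymerase I. The 4 groups had 3 libraries each, described as biological replicates. The p53-/- genotype was shared by every group, so that no comparison here had p53-proficient cells. Whether the sub-line was grown from 1 clone is not given in the sources used here, and a difference between the lines cannot be told apart from a difference between 1 sub-line and its parent. The deposited values are expected counts from RSEM, a program that divides reads among the transcripts they could have come from, and they totalled between 10087925 and 21138886 per library. Levels of one gene are given below as CPM, its reads relative to the size of the library after scaling by edgeR's TMM method, and levels of different genes are compared as TPM, which also accounts for transcript length. P-values measure the spread between these libraries.

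The labels were checked before the integrins were read. RPL3 did not pass as lower in the libraries labelled RPL3 KO by read count: with vehicle its level was 1138 ± 15.3 CPM (SD, n = 3) in HCT 116p53-/- and 1242 ± 82.5 CPM (SD, n = 3) in the labelled libraries (edgeR adjusted p = 0.155). As TPM, which was not tested, it was lower without overlap. It was between 545 and 641 TPM in the labelled libraries and between 720 and 826 TPM in HCT 116p53-/-. With vehicle ITGB1 and ITGA3, which did not pass by TMM-scaled count either, were also lower as TPM without overlap. ITGB1 was between 58.73 and 80.51 TPM in the labelled libraries and between 82.63 and 110.66 TPM in HCT 116p53-/-. ITGA3 was between 38.55 and 58.15 TPM and between 62.05 and 70.56 TPM. A lower TPM was thus not particular to RPL3, and RPL3 does not settle the label of the labelled libraries. These libraries are therefore called the libraries labelled RPL3 KO. The summed level of 13 epithelial markers was between 2670 and 2882 CPM in vehicle-treated HCT 116p53-/- libraries and between 1631 and 1826 CPM in those labelled RPL3 KO. Most of it came from KRT8 (1117 and 777 CPM), KRT18 (605 and 840 CPM) and KRT19 (609 and 36.6 CPM). CDH1, which encodes E-cadherin, averaged 66.8 and 0.445 CPM. Of the 10 epithelial markers tested 9 were lower and 1, KRT18, was higher (log2 0.47, SE 0.08, edgeR adjusted p = 2.28e-05). Among the lower, CDH1, KRT20, CDX2 and CLDN7 entered the test only through HCT 116p53-/- libraries, so that a difference was built into their tests. The summed level of 14 mesenchymal markers was between 52.96 and 62.7 CPM in the first group and between 2600 and 2678 CPM in the second, most of it from VIM, which encodes vimentin and averaged 22.0 and 2237 CPM. Of the 10 mesenchymal markers tested 8 were higher and 1, COL1A1, was lower (7.50 and 4.14 CPM), while CDH2, TWIST1, THY1, DCN and COL1A2 averaged under 1 CPM in both lines. Among the higher, SNAI2, PDGFRA, PDGFRB and COL3A1 entered the test only through the labelled libraries, so that a difference was built into their tests. Of the intestinal markers, CDX2 averaged 14.8 and 0.177 CPM, KRT20 0.897 and 0.0392 CPM, and CDX1 was at or near 0 in all groups. The summed level of 9 blood and endothelial markers was between 1.86 and 2.85 CPM in the first group and between 8.59 and 12.7 CPM in the second. Of the 4 tested 3 were higher and 1 lower, LYZ averaged 0.956 and 6.36 CPM, and CD3E was at 0 in every library. HBA1 and PECAM1, which were higher, entered the test only through the labelled libraries, and VWF, which was lower, only through HCT 116p53-/- libraries. Beside these marker counts, 35.1% of all genes tested were higher and 36.2% lower between the lines with vehicle. These differences moved with every difference between the lines described below, and their part in the integrin results was not tested. In bulk RNA, fewer cells of one type and less RNA per cell cannot be told apart.

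Integrins are receptors of the cell surface, each made of an alpha and a beta chain, that bind the extracellular matrix outside the cell and couple to actin or keratin filaments inside it through adaptor proteins. The pairing sets the ligand: α3β1, α6β1 and α6β4 bind laminins, α2β1 binds collagens, α5β1 binds fibronectin, and αV with β3, β5 or β6 binds proteins with an RGD motif, among them vitronectin and latent TGF-β. In colonic epithelium α6β4 anchors cells to the basement membrane in hemidesmosome-like contacts, and αVβ6 is an epithelial receptor that activates latent TGF-β.

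Promoter sequences were taken from RefSeq (GRCh38.p14) for the 7 subunits with an entry, ITGA2, ITGA5, ITGA6, ITGAV, ITGB1, ITGB5 and ITGB6. ITGA3, ITGB3 and ITGB4 had none. ITGA6, ITGAV and ITGB1 had 2 entries each and ITGB5 had 3, for different start sites. Shown are the 250 bases before the first listed start site of 4 genes whose transcripts followed different patterns here: ITGB1, which did not pass the test in any comparison, ITGA2, which fell with Act D in the libraries labelled RPL3 KO, and ITGB5 and ITGB6, which were higher in those libraries. Each is printed 5′ to 3′ on the gene's strand. Capitals mark the letters GGGCGG or their reverse complement CCGCCC, the core of a GC box. The windows are chr10:32958231-32958480 (minus strand) for ITGB1, chr5:52989102-52989351 (plus strand) for ITGA2, chr3:124901419-124901668 (minus strand) for ITGB5 and chr2:160200273-160200522 (minus strand) for ITGB6.
ITGB1: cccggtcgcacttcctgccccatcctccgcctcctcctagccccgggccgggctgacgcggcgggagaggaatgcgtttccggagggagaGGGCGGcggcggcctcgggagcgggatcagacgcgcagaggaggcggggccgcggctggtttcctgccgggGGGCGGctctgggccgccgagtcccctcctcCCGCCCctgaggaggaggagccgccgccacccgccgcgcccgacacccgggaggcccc
ITGA2: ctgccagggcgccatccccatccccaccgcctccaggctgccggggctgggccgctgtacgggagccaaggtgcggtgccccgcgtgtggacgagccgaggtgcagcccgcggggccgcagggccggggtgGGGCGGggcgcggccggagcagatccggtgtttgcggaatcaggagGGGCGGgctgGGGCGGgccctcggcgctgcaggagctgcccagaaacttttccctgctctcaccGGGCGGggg
ITGB5: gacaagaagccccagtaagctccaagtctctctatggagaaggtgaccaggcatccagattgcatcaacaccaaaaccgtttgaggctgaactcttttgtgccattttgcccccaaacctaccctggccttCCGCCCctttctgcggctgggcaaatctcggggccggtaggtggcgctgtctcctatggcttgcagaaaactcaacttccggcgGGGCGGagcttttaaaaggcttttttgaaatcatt
ITGB6: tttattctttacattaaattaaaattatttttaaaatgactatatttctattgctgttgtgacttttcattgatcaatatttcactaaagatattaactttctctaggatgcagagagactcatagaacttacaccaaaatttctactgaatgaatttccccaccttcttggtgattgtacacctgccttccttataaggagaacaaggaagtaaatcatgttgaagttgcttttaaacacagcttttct

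GC made up 78.4% of the ITGB1 window and 76.4% of the ITGA2 window, with 3 and 4 GC boxes, 52.8% of the ITGB5 window, with 2 GC boxes, and 30% of the ITGB6 window, with no GC box and 0 CpG dinucleotides. Windows of other entries differed, at 41.6% GC with 3 TATAAA matches for the second entry of ITGB1 and at 75.2% GC with 3 GC boxes for the third entry of ITGB5, and which start site was used was not measured. The median over all promoters in the table was 58% GC and 11 CpG dinucleotides. Both strands were also searched for TATAAA (the TATA box), TGANTCA (an AP-1 site) and CACGTG (an E-box), and none of these was in the 4 windows printed. Of all 35116 promoter windows of that length, 42.6% held GGGCGG, 10.7% TATAAA, 6.57% TGANTCA and 6.34% CACGTG. A match is a match of letters only, and no binding was measured.

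The first comparison asked how the lines differed with vehicle. In the libraries labelled RPL3 KO, 6 of the 10 subunits were higher and 2 lower when called at 0.05 (the edgeR p-value, adjusted over all genes tested), and in all 8 the 3 libraries of one line lay apart from the 3 of the other. Of all genes tested, 71.3% passed the same test in either direction, 35.1% higher and 36.2% lower, and 72.5% had groups that did not overlap, so that 8 of 10 is near the share of all genes. With Act D 8 subunits passed, 6 higher and 2 lower, and 8 did not overlap, where 70.4% of all genes passed and 74.1% did not overlap. ITGB3, ITGB5, ITGB6, ITGAV, ITGA5 and ITGA6 were higher, ITGB4 and ITGA2 were lower, and ITGB1 and ITGA3 did not pass. The median size of the log2 fold change, sign left aside, was 1.79 over the 10 subunits and 0.74 over all genes tested. The subunits were chosen with earlier results of these data known and include ITGB6, so that these medians are a description only.

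**Figure D1:**
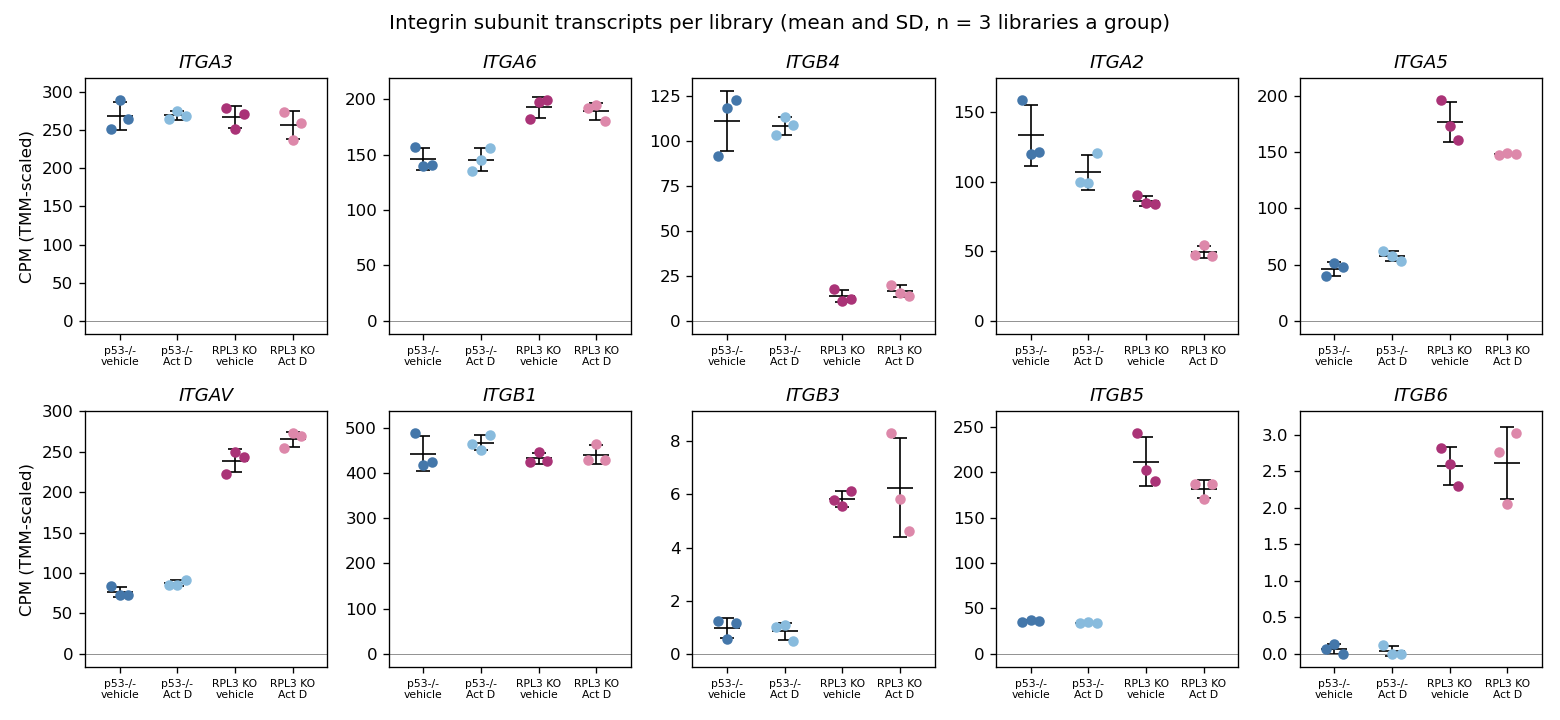
Level of each subunit in every library, as TMM-scaled CPM on a linear axis. Points are libraries, bars the mean and SD of 3 libraries, and p53-/- and RPL3 KO stand for HCT 116p53-/- and the libraries labelled RPL3 KO. ITGB4 falls from between 91.7 and 122 CPM to between 11.3 and 17.8 CPM, ITGB5 goes from between 34.9 and 37.3 to between 191 and 243 CPM, and ITGB1 and ITGA3 stay within overlapping ranges.

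The laminin-binding subunits came apart. ITGB4 (ENSG00000132470, chr17:75721328-75757818, plus strand), the beta chain of the hemidesmosomal receptor α6β4 with a long cytoplasmic tail that binds plectin, was at 91.7, 118 and 122 CPM in the 3 vehicle-treated HCT 116p53-/- libraries, replicates 1 to 3. In the vehicle-treated libraries labelled RPL3 KO it was at 17.8, 11.3 and 12.3 CPM. Every labelled library lay far below every HCT 116p53-/- library, also with Act D, where the values were 103, 113 and 108 CPM against 20, 15.6 and 13.8 CPM. The level was 8.13-fold lower with vehicle (log2 fold change -3.02, SE 0.16, edgeR adjusted p = 9.80e-12) and 6.47-fold lower with Act D (-2.69, SE 0.16, edgeR adjusted p = 6.60e-11).

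ITGA6 (ENSG00000091409, chr2:172427354-172506459, plus strand), the alpha chain that pairs with β4 or β1, did not fall with ITGB4. It was at 157, 139 and 141 CPM in vehicle-treated HCT 116p53-/- libraries and at 182, 198 and 199 CPM in those labelled RPL3 KO. The groups did not overlap, and the difference was small beside that of ITGB4, 1.32-fold higher with vehicle (log2 0.40, SE 0.08, edgeR adjusted p = 0.000251) and 1.30-fold higher with Act D (log2 0.38, SE 0.08, edgeR adjusted p = 0.000486). Scaling by library size alone lowered it to 0.16 with vehicle and ended the call (edgeR adjusted p = 0.130), and with Act D gave 0.13 (edgeR adjusted p = 0.204). As TPM, there were 1.06 ± 0.145 ITGB4 transcripts for each ITGA6 transcript in vehicle-treated HCT 116p53-/- cells (SD, n = 3) and 0.100 ± 0.0326 in the libraries labelled RPL3 KO (SD, n = 3). With Act D the ratios were 1.03 ± 0.236 and 0.122 ± 0.00634 (SD, n = 3 each).

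ITGA3 (ENSG00000005884, chr17:50055968-50090481, plus strand), the alpha chain of the laminin receptor α3β1, did not pass the test between the lines. Its levels were between 252 and 289 CPM in vehicle-treated HCT 116p53-/- libraries and between 251 and 279 CPM in those labelled RPL3 KO, ranges that overlap. The log2 fold change was -0.01 (SE 0.08, edgeR adjusted p = 0.937) with vehicle and -0.07 (SE 0.08, edgeR adjusted p = 0.470) with Act D. Library-size scaling, which moved the median of all genes by -0.24, gave -0.25 with vehicle (edgeR adjusted p = 0.0339) and -0.31 with Act D (edgeR adjusted p = 0.00956), so that a lower ITGA3 depended on the scaling.

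ITGA2 (ENSG00000164171, chr5:52989340-53094779, plus strand) encodes the alpha chain of the collagen receptor α2β1. It was at 158, 120 and 121 CPM in vehicle-treated HCT 116p53-/- libraries and at 90.4, 84.3 and 83.9 CPM in those labelled RPL3 KO. All labelled libraries were lower, by a smaller margin than for ITGB4 (log2 -0.63, SE 0.11, edgeR adjusted p = 6.27e-05). With Act D the values were 99.7, 99.1 and 121 CPM against 47.6, 54.7 and 46.5 CPM, and the difference was 2.15-fold (log2 -1.10, SE 0.12, edgeR adjusted p = 1.36e-07).

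The receptor chains for fibronectin and other RGD ligands were higher in the libraries labelled RPL3 KO. ITGA5 (ENSG00000161638, chr12:54395261-54419266, minus strand), the alpha chain of the fibronectin receptor α5β1, was at 39.8, 51.3 and 47.5 CPM in vehicle-treated HCT 116p53-/- libraries and at 196, 174 and 161 CPM in the labelled ones. Every labelled library lay far above every library of the other line, and the difference was 3.83-fold (log2 1.94, SE 0.10, edgeR adjusted p = 9.60e-12). With Act D, at 62.0, 57.5 and 53.3 CPM against 147, 149 and 148 CPM, it was 2.57-fold (log2 1.36, SE 0.10, edgeR adjusted p = 1.23e-09).

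ITGAV (ENSG00000138448, chr2:186590010-186680901, plus strand), the alpha chain that β3, β5 and β6 share, was at 84.2, 72.7 and 72.6 CPM in vehicle-treated HCT 116p53-/- libraries and at 223, 250 and 244 CPM in those labelled RPL3 KO. With Act D it was at 85.2, 85.7 and 92.0 CPM against 255, 273 and 269 CPM. The lines did not overlap under either treatment, and the log2 fold change was 1.64 with vehicle (SE 0.08, edgeR adjusted p = 6.68e-12) and 1.60 with Act D (SE 0.08, edgeR adjusted p = 1.21e-11).

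ITGB3, ITGB5 and ITGB6, beta chains that pair with αV, were higher too. ITGB5 (ENSG00000082781, chr3:124761948-124901418, minus strand), which with αV forms a vitronectin receptor, was at 34.9, 37.3 and 35.9 CPM in vehicle-treated HCT 116p53-/- libraries and at 243, 202 and 191 CPM in the labelled ones. With Act D it was at 34.2, 35.0 and 33.7 CPM against 187, 171 and 187 CPM. The HCT 116p53-/- values were within a few CPM of each other and all labelled libraries stood far above them, 5.88-fold with vehicle (log2 2.56, SE 0.09, edgeR adjusted p = 8.52e-14) and 5.29-fold with Act D (log2 2.40, SE 0.10, edgeR adjusted p = 2.69e-13).

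ITGB3 (ENSG00000259207, chr17:47253827-47313743, plus strand), best known as the platelet and endothelial partner of αIIb and αV, was a low transcript throughout. Its levels were 1.23, 0.551 and 1.15 CPM in vehicle-treated HCT 116p53-/- libraries, from 46 reads in all, and 5.78, 5.55 and 6.14 CPM in the labelled ones, from 274 reads. The groups did not overlap, and the log2 fold change was 2.55 with vehicle (SE 0.31, edgeR adjusted p = 8.33e-07) and 2.85 with Act D (SE 0.32, edgeR adjusted p = 3.87e-07). RSEM's own uncertainty in dividing reads among genes was larger for ITGB3 than for the other subunits, with a posterior SD between 3.25% and 26.3% of the count per library, against between 0.340% and 0.524% for ITGB1.

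ITGB6 (ENSG00000115221, chr2:160099667-160200313, minus strand), the epithelial partner of αV that activates latent TGF-β, had 1, 2 and 0 counts in vehicle-treated HCT 116p53-/- libraries and 35, 52 and 34 in the labelled ones. With Act D the counts were 2, 0 and 0 against 38, 18 and 26. At this depth ITGB6 was therefore at or near 0 in HCT 116p53-/- cells, where a count of 0 allows up to between 0.181 and 0.241 CPM per library, and low in the labelled libraries, between 2.06 and 3.01 CPM. The ratio of the pooled levels was 39.7 with vehicle (95% interval from counting error alone, 13.3 to 195) and 57.0 with Act D (15.3 to 479). Reads were not counted by molecular identifiers, so that such intervals and limits cover counting error only. Of the epithelial markers above, 9 of the 10 tested were lower in these libraries. Some of the 9 entered the test only through HCT 116p53-/- libraries. ITGB6, also known as an epithelial gene, was higher in the labelled libraries.

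ITGB1 (ENSG00000150093, chr10:32887273-33005792, minus strand), the common beta chain that pairs with α2, α3, α5, α6 and αV, did not pass the test in any comparison. It was between 417 and 488 CPM in vehicle-treated HCT 116p53-/- libraries and between 425 and 447 CPM in those labelled RPL3 KO. The ranges overlapped, with a log2 fold change of -0.03 (SE 0.08, edgeR adjusted p = 0.707) with vehicle and -0.08 (SE 0.08, edgeR adjusted p = 0.357) with Act D. Under library-size scaling it was lower by a small margin (-0.28 with vehicle, edgeR adjusted p = 0.0108, and -0.33 with Act D, edgeR adjusted p = 0.00327).

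**Figure D2:**
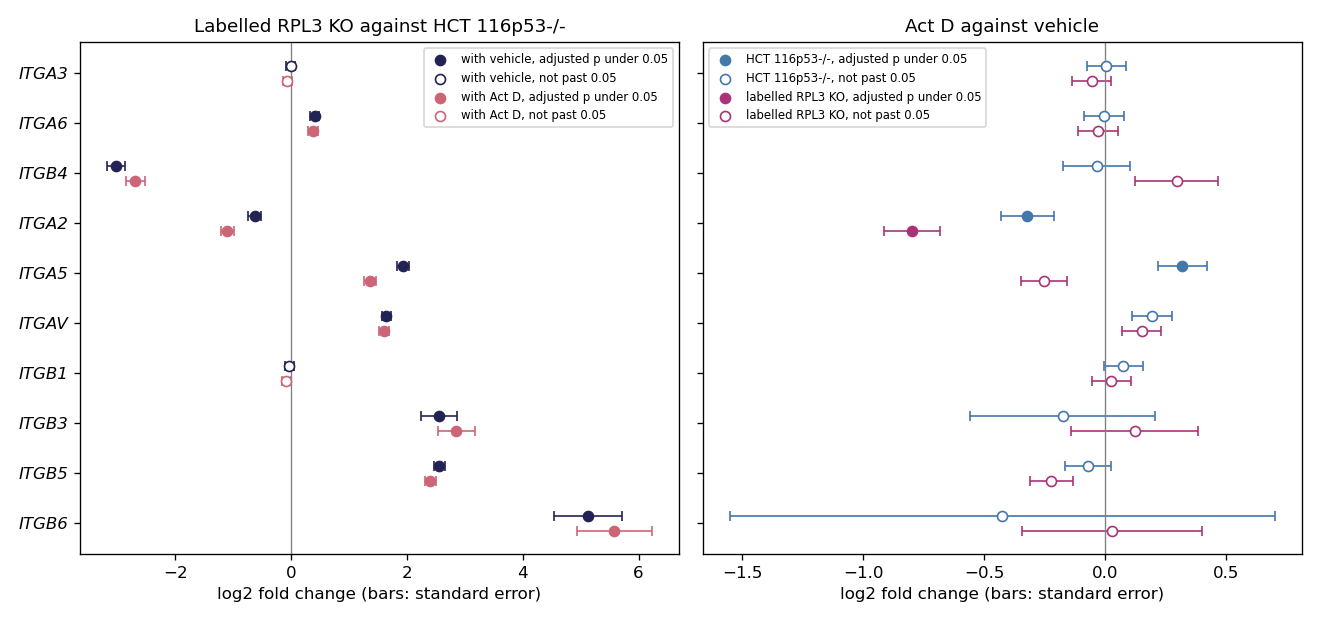
Log2 fold change of each subunit with its standard error, left for the libraries labelled RPL3 KO against HCT 116p53-/- and right for Act D against vehicle, on axes of different width. Filled points passed an edgeR adjusted p under 0.05, and open points did not. On the left the differences run from -3.02 for ITGB4 to 5.58 for ITGB6, and on the right the filled points are ITGA2 in both lines and ITGA5 in HCT 116p53-/- cells.

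Levels of different subunits were set side by side as TPM. In vehicle-treated HCT 116p53-/- cells ITGB1 (94.7 ± 14.4 TPM) was highest, followed by ITGA3 (66.5 ± 4.26 TPM), then ITGB4 (22.0 ± 0.864 TPM) and ITGA6 (21.0 ± 2.20 TPM), whose ranges overlapped (SD, n = 3). ITGB5 (15.2 ± 3.53 TPM) and ITGA2 (13.3 ± 3.12 TPM) overlapped in the same way, as did ITGA5 (9.21 ± 0.718 TPM) and ITGAV (8.48 ± 1.27 TPM), while ITGB3 (0.407 ± 0.386 TPM) and ITGB6 (0.0133 ± 0.0115 TPM) came last (SD, n = 3). In the vehicle-treated libraries labelled RPL3 KO the order was another one. ITGB1 (68.6 ± 11.03 TPM), ITGB5 (63.3 ± 36.9 TPM) and ITGA3 (51.2 ± 10.9 TPM) formed an overlapping top, ITGA5 (26.5 ± 4.35 TPM), ITGA6 (21.9 ± 3.13 TPM) and ITGAV (19.1 ± 1.76 TPM) a middle, and ITGA2 (6.14 ± 1.08 TPM), ITGB4 (2.25 ± 1.02 TPM), ITGB3 (0.947 ± 0.167 TPM) and ITGB6 (0.490 ± 0.231 TPM) followed (SD, n = 3). By the means, ITGB4 stood at the third place in the first group and the eighth in the second, and ITGB5 at the fifth and the second.

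As shares of all beta subunit transcripts by TPM, ITGB1 took 70.1 ± 4.49% in vehicle-treated HCT 116p53-/- cells, ITGB4 16.5 ± 2.10% and ITGB5 11.4 ± 3.09% (SD, n = 3). In the libraries labelled RPL3 KO the shares were 52.3 ± 9.21% for ITGB1, 1.61 ± 0.218% for ITGB4 and 44.1 ± 9.31% for ITGB5 (SD, n = 3). The share of ITGB1 was thus lower there although its CPM did not pass the test. Among alpha subunits ITGA3 held the largest share in both, 49.9 ± 4.08% and 35.6 ± 3.16%, and ITGA5 went from 6.95 ± 1.01% to 18.6 ± 1.16% and ITGAV from 6.33 ± 0.564% to 13.5 ± 0.871% (SD, n = 3). ITGA6 kept between 14.7% and 16.3% in the first group and between 15.0% and 15.6% in the second.

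**Figure D3:**
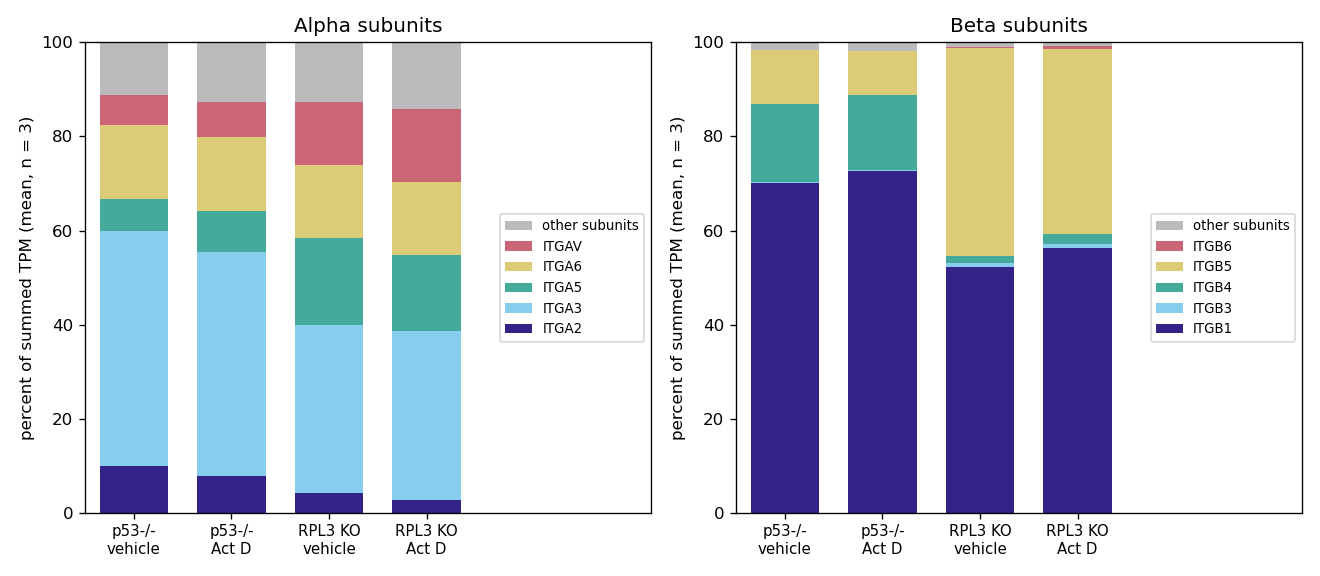
Make-up of the alpha (left) and beta (right) integrin transcripts, as percent of the summed TPM of all 26 subunit genes split by chain, mean of 3 libraries per group. The ITGB4 share goes from 16.5% to 1.61% and the ITGB5 share from 11.4% to 44.1% between the lines with vehicle, and with Act D the shares are 16% and 2.13% for ITGB4 and 9.41% and 39.4% for ITGB5.

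The TPM of ITGB5 carried a limit of its own. Replicate 1 of the vehicle-treated libraries labelled RPL3 KO was at 106 TPM, against 39.9 and 44.2 TPM in replicates 2 and 3, while its CPM was 243, against 202 and 191. The gene length that RSEM assigned, an average weighted by the transcripts it called, was 1536 bases in that library and 2458 and 2481 bases in the others. A shorter length gives a higher TPM for the same count. Over the 11 libraries with values per gene the ITGB5 length ran from 1536 to 2685 bases and was short in some libraries of every group, so that the order of ITGB5 among the subunits is less certain than its difference between the lines, which rests on counts.

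**Figure D4:**
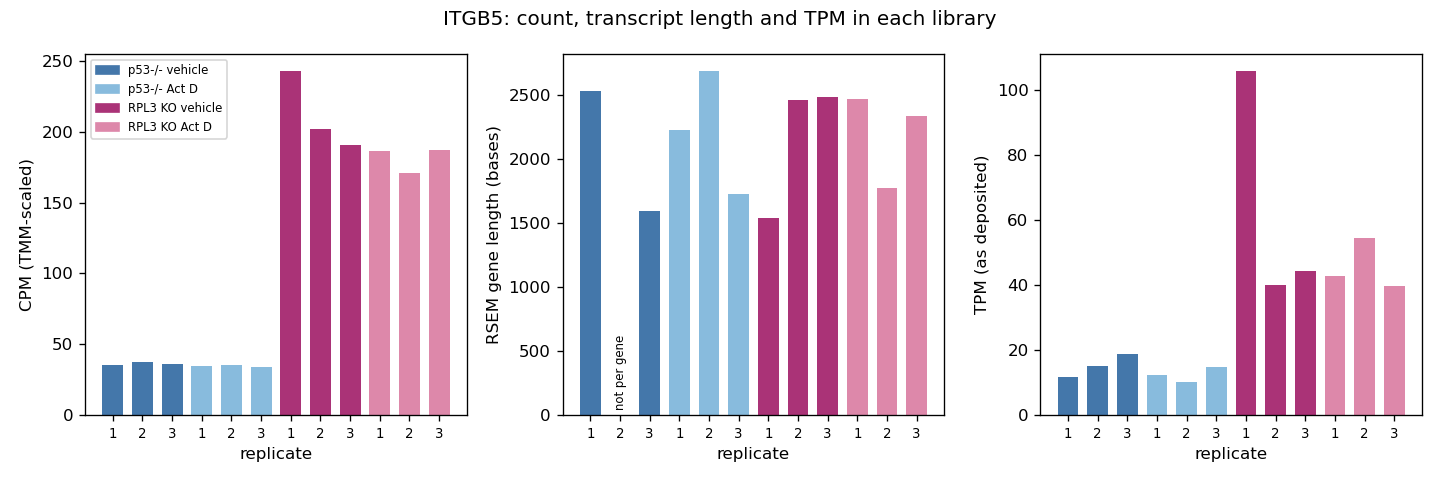
ITGB5 in each library: CPM (left), the gene length RSEM assigned (middle) and deposited TPM (right), bars by replicate within the 4 groups. Replicate 1 of the vehicle-treated RPL3 KO group has the shortest length, 1536 bases, and the highest TPM, 106, and the vehicle-treated p53-/- bar of replicate 2 is missing from the middle panel, since that file is per transcript.

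Transcript-level values were available here for 1 library, replicate 2 of vehicle-treated HCT 116p53-/- cells, and describe that library only. ITGB1-201 took 98.2% of the ITGB1 counts, ITGA5-201 98.1% of those of ITGA5 and ITGA2-201 98.3% of those of ITGA2. ITGA6 was divided between ITGA6-202 (53.4% of counts) and ITGA6-201 (45.9%), and ITGAV between ITGAV-201 (72.8%) and ITGAV-202 (27.2%). ITGB4-203 took 78.6% of the ITGB4 counts and ITGB5-201 71.2% of those of ITGB5. How reads divide among transcripts that overlap is an estimate.

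The second question was how Act D changed the subunits. In HCT 116p53-/- cells 1 subunit, ITGA5, was higher and 1, ITGA2, was lower with Act D (edgeR adjusted p under 0.05), where 18.7% of all genes tested passed, 7.59% higher and 11.1% lower. In 2 of the 10 the Act D and vehicle libraries did not overlap, against 38.2% of all genes. ITGA5 was at 39.8, 51.3 and 47.5 CPM with vehicle and 62.0, 57.5 and 53.3 CPM with Act D, a small rise without overlap (log2 0.32, SE 0.10, edgeR adjusted p = 0.0352). ITGA2 was at 158, 120 and 121 CPM with vehicle and at 99.7, 99.1 and 121 CPM with Act D, so that the groups touched, and its fall lay just inside the threshold (log2 -0.32, SE 0.11, edgeR adjusted p = 0.0495).

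Both calls depended on the fit. Same-numbered libraries of these groups varied together only weakly (correlations 0.129, 0.155 and 0.192, beside 0.140 for an unmatched pair), too little to show pairing. With the replicate number as a block in the fit of all 12 libraries neither subunit passed (edgeR adjusted p = 0.0572 for ITGA5 and 0.0790 for ITGA2), while the block in a fit of the HCT 116p53-/- libraries alone kept both (edgeR adjusted p = 0.0105 and 0.0116). Over all alternatives the adjusted p ran from 0.0105 to 0.202 for ITGA5 and from 0.0116 to 0.276 for ITGA2. Leaving out replicate 1 of the vehicle libraries or replicate 1 or 2 of the Act D libraries ended both calls, with log2 fold changes between 0.22 and 0.32 for ITGA5 and between -0.28 and -0.18 for ITGA2. ITGA5 also missed the threshold without replicate 3 of the vehicle libraries (edgeR adjusted p = 0.0645) and under library-size scaling (0.202). ITGA2 also missed it with upper-quartile scaling (edgeR adjusted p = 0.0800) and in the fit of only the groups compared, without a block. Its call also ended without any 1 of the libraries labelled RPL3 KO except replicate 1 of those with vehicle (edgeR adjusted p 0.0558 to 0.0697).

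The other 8 subunits had log2 fold changes between -0.42 for ITGB6, from 3 against 2 counts, and 0.20 for ITGAV in HCT 116p53-/- cells, and none passed. ITGAV came nearest, at 72.6 to 84.2 CPM with vehicle and 85.2 to 92.0 CPM with Act D, groups that did not overlap (SE 0.08, edgeR adjusted p = 0.118). ITGB4, which differed so much between the lines, was at 91.7 to 122 CPM with vehicle and 103 to 113 CPM with Act D (log2 -0.03, SE 0.14, edgeR adjusted p = 0.907).

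In the libraries labelled RPL3 KO, Act D changed 1 of the 10 subunits at an adjusted p under 0.05, where 11.9% of all genes passed, 3.51% higher and 8.4% lower. ITGA2, at 90.4, 84.3 and 83.9 CPM with vehicle, was at 47.6, 54.7 and 46.5 CPM with Act D. No Act D library reached the lowest vehicle library, and the level fell 1.74-fold (log2 -0.80, SE 0.12, edgeR adjusted p = 0.000186). This call held under every alternative run, each library left out in turn included. Of the 10 subunits, 4 had groups that did not overlap, against 27.6% of all genes: beside ITGA2 these were ITGA5 (log2 -0.25, SE 0.10, edgeR adjusted p = 0.104), ITGB5 (-0.22, SE 0.09, edgeR adjusted p = 0.115) and ITGAV (0.15, SE 0.08, edgeR adjusted p = 0.260), which did not pass. With library-size scaling ITGA5 (-0.36, edgeR adjusted p = 0.0331) and ITGB5 (-0.33, edgeR adjusted p = 0.0494) passed, and with no filter on low counts ITGA5 did (-0.30, edgeR adjusted p = 0.0476).

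The responses of the lines were then set against each other by the interaction of line and Act D, in which 1 of the 10 subunits and 6.53% of all genes passed, 3.3% with a positive and 3.23% with a negative difference. That subunit was ITGA5, which went up by 0.32 in HCT 116p53-/- cells and had a value of -0.25 in the libraries labelled RPL3 KO, a difference between the responses of -0.57 (SE 0.14, edgeR adjusted p = 0.0205). The gap between the lines in ITGA5 was thus narrower with Act D, 2.57-fold against 3.83-fold. Without replicate 1 of the Act D-treated HCT 116p53-/- libraries the adjusted p was 0.0682, and without replicate 1 of the Act D-treated libraries labelled RPL3 KO it was 0.0505. ITGA2 fell by 0.80 in the labelled libraries and by 0.32 in HCT 116p53-/- cells, and the difference of -0.48 (SE 0.16, edgeR adjusted p = 0.0846) did not pass, though it did without replicate 1 of the vehicle-treated HCT 116p53-/- libraries (-0.62, edgeR adjusted p = 0.0169), with no filter on low counts (-0.51, edgeR adjusted p = 0.0166) and by DESeq2 (-0.48, DESeq2 adjusted p = 0.0491). For the other 8 subunits the difference ran from -0.15 for ITGB5 to 0.45 for ITGB6 and did not pass.

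The genes whose level over the 12 libraries ran most like that of each subunit are given as a description, since all 12 values share the split between the lines. For ITGB5 it was DMRTA2 (Pearson r of log2 CPM 0.999), for ITGAV the MHC class I light chain gene B2M (0.999), for ITGB4 NBEAL2 (0.997), for ITGB6 MXRA8 (0.995) and for ITGA5 the Notch ligand gene JAG1 (0.994). For ITGA2 it was GPBP1L1 (0.992), for ITGB3 the Wnt receptor gene FZD7 (0.989), and for ITGA6 PTBP2 (0.983). ITGAV had 1929 genes with r of 0.95 or more, ITGB5 1790 and ITGB4 1460, whereas ITGA2 had 89. No gene reached that level for ITGB1 or ITGA3, whose nearest were RPF1 (0.897) and ARHGDIA (0.912).

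Of the 16 other integrin subunit genes, 8 had enough counts to be tested. Of these, 2 were higher and 2 lower between the lines with vehicle, where 35.1% of all genes tested were higher and 36.2% lower. ITGA1, a collagen receptor chain, averaged 1.94 ± 0.0588 CPM in the parental line and 35.4 ± 6.59 CPM in the labelled libraries (SD, n = 3; log2 4.19, SE 0.17, edgeR adjusted p = 3.56e-13). ITGA10, another collagen receptor chain, averaged 0.447 ± 0.157 and 12.6 ± 0.140 CPM (SD, n = 3). It passed the low-count filter only through the labelled libraries, so that a difference was built into its test. ITGB8, a partner of αV, was lower (22.2 ± 2.14 and 14.2 ± 0.936 CPM, SD, n = 3; log2 -0.64, SE 0.12, edgeR adjusted p = 7.97e-05), in contrast to ITGB3, ITGB5 and ITGB6, while ITGA9, at 1.24 ± 0.235 and 0.205 ± 0.182 CPM (SD, n = 3), passed the filter only through HCT 116p53-/- libraries. With Act D ITGA1 rose in the libraries labelled RPL3 KO, where ITGA2 fell, from 35.4 to 51.6 CPM (log2 0.54, SE 0.13, edgeR adjusted p = 0.00917).

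Of 4 hemidesmosome partner genes, 2 were lower, as ITGB4 was, and 2 higher, where 36.2% of all genes tested were lower and 35.1% higher. COL17A1, a transmembrane collagen of hemidesmosomes, was lower in the libraries labelled RPL3 KO with vehicle, at 0.751 ± 0.0941 CPM against 16.7 ± 1.52 CPM (SD, n = 3; log2 -4.44, SE 0.18, edgeR adjusted p = 3.56e-13). PLEC, which encodes plectin, the link from β4 to keratin filaments, was lower as well (log2 -0.95, SE 0.19, edgeR adjusted p = 0.000253). DST, whose epithelial isoform BP230 is a hemidesmosome protein, was higher (log2 0.69, SE 0.09, edgeR adjusted p = 1.44e-06), and so was CD151, a tetraspanin that binds α3 and α6 integrins (log2 1.33, SE 0.10, edgeR adjusted p = 7.81e-10). Of 10 tetraspanin genes, CD151 included, 6 were higher and 3 lower, where 71.3% of all genes passed, with TSPAN15 and TSPAN4 among the higher (log2 2.62, SE 0.15, and 2.30, SE 0.14).

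Among ligands, 6 of the 12 laminin and netrin genes were higher and 4 lower with vehicle, where 35.1% of all genes were higher and 36.2% lower. LAMB1, a laminin beta chain, was at 403 ± 15.8 CPM in the libraries labelled RPL3 KO against 35.6 ± 3.23 CPM (SD, n = 3; log2 3.50, SE 0.10, edgeR adjusted p = 4.21e-15). Of the 17 RGD and latent TGF-β ligand genes tested 13 were higher and 3 lower, beside the same 35.1% and 36.2% of all genes. FN1, which encodes fibronectin, the ligand of α5β1, averaged 22.6 ± 1.82 and 249 ± 11.3 CPM (SD, n = 3; log2 3.46, SE 0.12, edgeR adjusted p = 2.51e-14), and LTBP1, a binding protein of latent TGF-β, 9.75 ± 1.27 and 52.8 ± 3.65 CPM (SD, n = 3). FN1 is also one of the mesenchymal markers counted above. NPNT, the ligand of α8β1, was at 8.24 and 0.128 CPM. It passed the filter only through HCT 116p53-/- libraries, and the counts of these lists hold genes that passed through 1 line only, NPNT included, 4 of the 17 RGD and latent TGF-β ligand genes and 1 each of the tetraspanin, laminin and collagen genes. Of the 9 collagen genes tested 6 were higher and 1 lower, beside the same 35.1% and 36.2%, with COL6A1 at 61.6 and 380 CPM. The median log2 fold change was 2.41 over the RGD and latent TGF-β ligand genes, 2.44 over the collagen genes and -0.02 over all genes tested. These medians hold genes that passed through 1 line only, and the lists were chosen with earlier results of these data known. They are therefore a description and no test of a shift of the ligands.

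Inside the cell, 21 of the 40 adaptor and kinase genes tested were higher and 8 lower with vehicle, with a median log2 fold change of 0.22. That is close to the 71.3% of all genes that passed. Library-size scaling gave 15 higher and 12 lower and a median of -0.02. TNS4, a tensin that binds β integrin tails, was at 1.52 ± 0.217 CPM in the libraries labelled RPL3 KO against 53.7 ± 4.84 CPM (SD, n = 3; log2 -5.15, SE 0.16, edgeR adjusted p = 1.25e-14). RAP1B, a small GTPase that promotes integrin activation, was higher (70.1 ± 3.93 and 428 ± 39.8 CPM, SD, n = 3; log2 2.61, SE 0.09, edgeR adjusted p = 2.51e-14), as was the docking protein gene NEDD9 (log2 4.82, SE 0.25, edgeR adjusted p = 7.07e-12). DOCK1, an activator of Rac, was lower (log2 -1.57, SE 0.08, edgeR adjusted p = 4.11e-12).

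With Act D, 7 of the 40 adaptor and kinase genes passed in HCT 116p53-/- cells and 7 in the libraries labelled RPL3 KO, all of them lower with TMM scaling, where 18.7% and 11.9% of all genes passed. Upper-quartile scaling gave 2 higher and 5 lower in the first line and 1 higher and 5 lower in the second. PTK2, which encodes focal adhesion kinase, fell in HCT 116p53-/- cells from 114 to 68.6 CPM (log2 -0.74, SE 0.09, edgeR adjusted p = 1.26e-05), and KANK1, which binds talin at adhesion rims, from 22.1 to 8.57 CPM (log2 -1.37, SE 0.13, edgeR adjusted p = 1.73e-06). PTK2 was also lower with Act D in the libraries labelled RPL3 KO (log2 -0.27, SE 0.09, edgeR adjusted p = 0.0457). KANK1 did not pass there (log2 -0.12, SE 0.15, edgeR adjusted p = 0.664). TNS3 fell in both lines, by 1.12 and by 0.74 on the log2 scale. The response differed between the lines for KANK1 (interaction 1.25, SE 0.20, edgeR adjusted p = 0.00116) and for PTK2 (0.46, SE 0.12, edgeR adjusted p = 0.0295). Of the laminin and netrin genes 5 of 12 were higher with Act D in HCT 116p53-/- cells (3 with library-size scaling), where 7.59% of all genes were higher with TMM scaling. The difference between the responses of the lines passed for LAMB3 (interaction -0.68, edgeR adjusted p = 0.00648) and LAMA3 (-0.69, edgeR adjusted p = 0.0345). In the list of RGD and latent TGF-β ligand genes 4 of 17 were higher with Act D in HCT 116p53-/- cells (3 with library-size scaling), beside the same 7.59%. These included CCN1 and CCN2, matrix proteins that bind αV integrins, which rose from 7.34 to 15.96 CPM and from 3.43 to 8.76 CPM. CCN2 rose in the libraries labelled RPL3 KO as well (log2 0.63, SE 0.16, edgeR adjusted p = 0.0153), and its difference between the responses did not pass (-0.70, edgeR adjusted p = 0.123), whereas that of CCN1 did (-1.14, edgeR adjusted p = 0.00716).

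**Figure D5:**
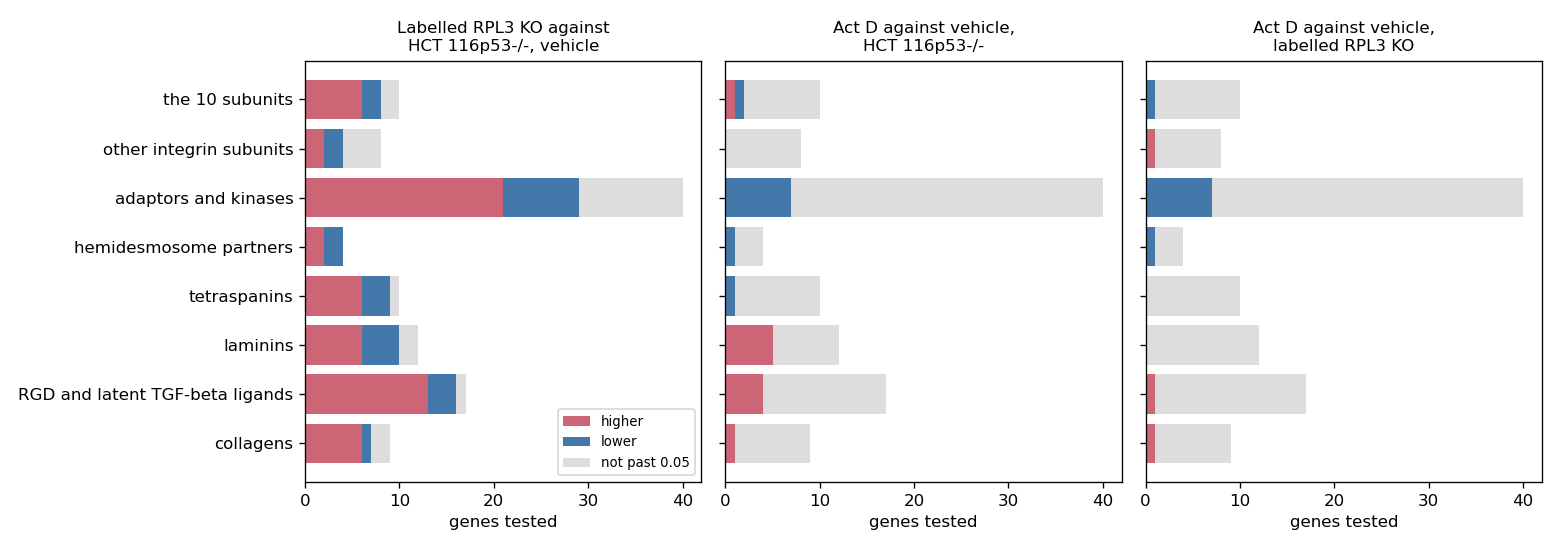
Number of tested genes in each list that were higher, lower or not past an edgeR adjusted p of 0.05, for the line difference with vehicle (left) and for Act D in each line (middle and right). The lists are the 10 subunits, the other integrin subunits and the adaptor, partner and ligand genes, and the 7 adaptor and kinase genes that passed with Act D in each line were lower with the TMM scaling plotted, while upper-quartile scaling gave 2 and 1 higher.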

How the data were processed

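Per the study's methods the authors trimmed the reads, removed those from rRNA and other contaminants, and ran RSEM 1.2.25 on Ensembl genes (build hg38); the Ensembl release is not given in the sources used here. The authors deposited the RSEM expected count, TPM, a length and a posterior SD of the count for each gene. One library (vehicle, HCT 116p53-/-, replicate 2) was used per transcript, with the deposited percent of each gene's transcripts, and its counts and TPM were summed per gene.

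Expected counts were rounded to whole numbers, filtered by edgeR's filterByExpr (15692 of 60617 genes kept; 33990 had any count), scaled by TMM (factors 0.847 to 1.148) and tested with edgeR 4.0.16 (quasi-likelihood test, R 4.3.3), all 12 libraries in 1 model with a coefficient per group and Benjamini-Hochberg adjustment over all genes tested at 0.05. Symbols, from GENCODE v44, matched 60261 genes. On simulated counts for Act D in HCT 116p53-/- cells (15319 genes) edgeR recovered 162 of 200 changed genes with 9 false calls, and DESeq2 1.42.0 recovered 162 with 19. The planted changes had a log2 size of 1 or more. The subunits' log2 values with Act D were smaller, and recovery of such changes was not measured. Alternatives were DESeq2, other scalings and filters, a replicate block, fits of only those groups in the comparison, and each library left out.

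As a check of pairing, deviations from group means of same-numbered libraries correlated at 0.129, 0.155 and 0.192 between vehicle and Act D in HCT 116p53-/- cells. Such weak values leave a pairing possible but not shown, and it was read from the data and the label numbers, not from a stated shared day (the unmatched pair of vehicle 2 and Act D 1 had 0.140). The other groups did not show this pattern. Numbers are those of the titles; the descriptions number the Act D libraries labelled RPL3 KO from 4 to 6, so that their pairing by number is in doubt, as is their place in the block of 12 libraries. The block within the HCT 116p53-/- libraries alone was added after the data were seen.

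The subunits were chosen by name, and the members and the lists of other genes were chosen with earlier results of these data known. The text names every subunit, RPL3, the most similar gene to each subunit by Pearson r, and of each list at most 4 genes per comparison with the smallest p; exceptions are stated, and some genes the rule names are not reported here.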

Additional observations from a re-analysis of the deposited data

Results flagged for a closer look

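ITGA5 was the 1 subunit whose response to Act D differed between the lines by the test of that difference. Mean levels in HCT 116p53-/- cells were 46.2 ± 5.87 CPM (vehicle) and 57.6 ± 4.33 CPM (Act D), and those in the libraries labelled RPL3 KO 177 ± 17.9 CPM and 148 ± 1.08 CPM (SD, n = 3 each). The interaction was -0.57 on the log2 scale (edgeR adjusted p = 0.0205; 0.00161 to 0.0682 over all alternatives), with every Act D library above every vehicle library in the first line and below every one in the second.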

How the results depend on the processing

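The 8 subunit calls between the lines kept their direction under all alternatives, and all were kept except ITGA6 under library-size scaling, given with that gene. Over the log2 values of single subunits, 878 kept their direction and side of the threshold, 21 lost and 10 gained a call and 39 changed sign, all of them values that had not passed. For Act D in HCT 116p53-/- cells the 2 subunits called became 1 with library-size scaling, 1 with upper-quartile scaling, 1 with only the groups compared, 0 with the replicate block and 0 to 2 with 1 library left out, and the 2939 genes called over all became 1833 to 3389. For Act D in the libraries labelled RPL3 KO the 1 subunit became 3 with library-size scaling and 2 with no filter, and the 1869 genes became 1272 to 1869 with 1 library left out. For the interaction the 1 subunit became 2 with DESeq2, 2 with no filter and 0 to 2 with 1 library left out, and the 1025 genes became 614 to 979. Genes higher and lower with library-size scaling were 4202 and 6974 between the lines with vehicle (5501 and 5684 with TMM), 551 and 2309 for Act D in HCT 116p53-/- cells (1191 and 1748 with TMM, 1480 and 1519 with upper-quartile scaling) and 227 and 1858 for Act D in the libraries labelled RPL3 KO (551 and 1318 with TMM, 944 and 1012 with upper-quartile scaling). The cause of these shifts was not tested.

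Values near 0 that changed sign were, for Act D in HCT 116p53-/- cells, ITGA3 (-0.0933 with library-size scaling, -0.00182 with no filter), ITGA6 (0.00211 with DESeq2, 0.0290 with upper-quartile scaling), ITGB1 (-0.0272 with library-size scaling) and ITGB4 (0.00021 with upper-quartile scaling). For Act D in the libraries labelled RPL3 KO they were ITGA3 (0.00785) and ITGA6 (0.0342) with upper-quartile scaling, ITGB1 (-0.0820 with library-size scaling, -0.0189 with no filter) and ITGB6 (-0.0721 and -0.0148), and for the interaction ITGA6 (0.00523 with upper-quartile scaling). With 1 library left out the ranges were, between the lines with vehicle, -0.0508 to 0.0502 for ITGA3 and -0.0755 to 0.0400 for ITGB1. For Act D in HCT 116p53-/- cells they were -0.0399 to 0.0597 for ITGA3, -0.047 to 0.0504 for ITGA6, -0.45 to 0.0888 for ITGB3, -0.15 to 0.0422 for ITGB4 and -3.03 to 0.45 for ITGB6. For Act D in the libraries labelled RPL3 KO they were -0.0352 to 0.0483 for ITGB1, -0.16 to 0.26 for ITGB3 and -0.11 to 0.14 for ITGB6, and for the interaction -0.0834 to 0.00575 for ITGA6 and -0.42 to 3.06 for ITGB6.

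The replicate block changed no other count of subunits called. Same-numbered libraries did not vary together between the lines (correlations from -0.338), so that there the number is only a name. ITGB6 and ITGB3 rest on few counts, and their Act D responses were not detectable at this depth. ITGB6 could not be tested in fits of the HCT 116p53-/- libraries alone, and the interaction uses every group, so that only the groups compared is its own fit.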
